A study of Mus musculus with 6 samples.

Results

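The genes described here are 10 of the 54532 in the deposited table: the Notch receptors Notch1 to Notch4, the ligands Jag1, Jag2 and Dll1, and the target genes Hes1, Hey1 and Heyl. They were chosen by gene name as parts of 1 signaling pathway, and all 10 have a row. RNA sequencing was performed on MC3T3-E1 cells, a mouse pre-osteoblast line that deposits mineralized matrix when it is induced. The control group (3 samples) was kept for 3 days in osteogenic medium, which contains β-glycerophosphate, ascorbic acid and dexamethasone, and the metformin group (3 samples) received the same medium with 0.2 mM metformin, a biguanide that lowers blood glucose. Both groups were therefore induced, no uninduced cells were compared, and the dose and time come from the methods and results of the study. The sample labels name the groups only as nc and met, so the induced state of the controls is also taken from the study. The question was which genes differ when metformin is added to the induction.

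Notch receptors span the cell membrane and are activated by Jagged or Delta ligands on a neighbouring cell. Binding exposes the receptor to an ADAM protease and then to γ-secretase, and the released intracellular domain enters the nucleus, binds Rbpj and the Mastermind coactivators, and switches on the Hes and Hey genes, which encode transcriptional repressors. In the osteoblast lineage, Notch signaling is known for restraining maturation, in part through Hes and Hey proteins that interact with Runx2.

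Levels are in FPKM, the reads of a gene scaled to its length and to the size of the library, so that genes can be compared with each other. The reads behind the FPKM values could be recovered and summed to 18399861 to 22111790 per sample. A difference between the groups was tested by limma-trend, on log2(FPKM + 1), in 12681 genes whose mean reached 0.5 FPKM, and a gene was called at a Benjamini-Hochberg adjusted p-value under 0.05. Of those genes, 1670 (13.2%) were called higher with metformin and 1177 (9.28%) lower. Control replicate 1 stood apart from the other controls, with correlations across genes of 0.96 and 0.952 against 0.988 between replicates 2 and 3, and its deviation followed GC content (Spearman rho -0.668 across genes). All 8 osteoblast markers examined were at a mean of at least 0.5 FPKM, with Alpl at only 2.44 to 3.84 FPKM. Of the osteoblast markers, Col1a1 and Col1a2 were called higher and Ibsp and Spp1 lower. None of 6 endothelial markers reached 0.5 FPKM (summed level 0.0589 to 0.157 in controls and 0.0243 to 0.131 with metformin). Of 4 mural cell markers other than Notch3, Kcnj8 and Abcc9 had 0 reads and Cspg4 alone reached the limit (summed level 16.4 to 23.4 in controls and 20.1 to 22.1 with metformin). Of 6 macrophage and osteoclast markers, Cd68 and Ctsk reached the limit and both were called lower (summed level 245 to 273 FPKM in controls and 150 to 163 with metformin), while Acp5 had 0 reads. Ctsk made up nearly all of this sum, at 243 to 271 FPKM in controls and 149 to 162 with metformin. Ptprc and Adgre1 had at most 6 reads in any sample, and Csf1r had 5 reads in the controls and 18 with metformin. Of 5 chondrocyte and 4 adipocyte markers, 3 and 1 reached the limit (summed levels 29.9 to 43.6 and 1.65 to 3.08 in controls, 29.0 to 30.8 and 1.88 to 2.31 with metformin), and 1 chondrocyte marker was called lower. The part of other cell types in the values described here was not tested. In bulk RNA, fewer cells of a kind and less RNA per cell cannot be told apart.

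Both called receptors, Notch2 and Notch3, are shown here with the 250 bases before their RefSeq start, read 5′ to 3′ on the strand of the gene (GRCm38.p6, chr3:98013288-98013537 on the plus strand for Notch2 and chr17:32166891-32167140 on the minus strand for Notch3). The table of start windows matched 7 of the 10 genes, not Hes1, Hey1 and Heyl, and gave 8 windows. Capitals mark GGGCGG or its reverse complement, the GC box bound by Sp family factors, and neighbouring matches did not overlap in the windows shown.
Notch2: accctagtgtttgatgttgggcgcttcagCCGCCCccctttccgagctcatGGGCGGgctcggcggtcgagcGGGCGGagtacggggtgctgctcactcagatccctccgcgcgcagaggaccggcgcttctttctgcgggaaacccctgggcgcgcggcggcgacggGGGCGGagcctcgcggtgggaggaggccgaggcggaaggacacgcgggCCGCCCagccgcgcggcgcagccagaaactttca
Notch3: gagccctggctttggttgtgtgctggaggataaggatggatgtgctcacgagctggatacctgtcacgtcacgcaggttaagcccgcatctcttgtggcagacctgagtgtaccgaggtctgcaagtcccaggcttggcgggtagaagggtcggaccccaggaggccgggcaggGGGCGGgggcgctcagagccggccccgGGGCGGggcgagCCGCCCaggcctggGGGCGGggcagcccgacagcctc
The Notch2 window held 5 GC boxes and the Notch3 window 4, and 4 of the 8 windows of the family held at least 1. Notch1, which was not called, and Jag2, which was not tested, also had 5 each, with overlapping matches in Jag2. Of all 32851 windows of this length, 32.7% held one. TGGGAA, the core of the Rbpj site, was in 0 of the 8 windows on either strand, against 21.6% of all windows. A match or its absence describes these letters in these windows and says nothing of binding.

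Of the 3 receptors tested, 1 was called higher and 1 lower, and the lower call was lost in 5 of 15 alternative fits. Notch3 was higher with metformin, Notch2 was lower, Notch1 was not called and Notch4 was too low to test. Of all 10 genes, 5 passed the filter, each with at least 0.5 FPKM in every sample, and of these 1 was called higher and 1 lower (2 of 5 against 22.5% of all tested genes). The other 5 did not pass and are described by their values. The median log2 fold change of the 5 tested genes was 0.21, against 0.0053 over all tested genes.

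Notch3 encodes a receptor best known from vascular smooth muscle and pericytes (chromosome 17, 32120820 to 32166880, minus strand). Its level was 2.87, 3.11 and 4.46 FPKM in the controls and 7.37, 7.92 and 7.64 FPKM with metformin. Each metformin sample was above each control, and control replicate 3 was the highest control. The mean rose from 3.48 ± 0.858 to 7.64 ± 0.278 FPKM (SD, n = 3 per group), which is 2.2 times the control level, and the log2 fold change was 0.96 ± 0.14 (SE, limma-trend adjusted p = 0.00397). All 15 alternative fits gave the call, and in them the log2 fold change was 0.87 to 1.16 and the adjusted p-value 0.000699 to 0.0262. An antisense gene, Gm17276, shares 333 bases with the Notch3 transcript and had 0 reads in all samples.

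Notch2, the receptor with the highest level in these cells (chromosome 3, 98013527 to 98150361, plus strand), was at 27.3, 24.4 and 28.3 FPKM in the controls. With metformin it was at 20.1, 21.1 and 19.6 FPKM, below every control. The mean fell from 26.7 ± 2.03 to 20.3 ± 0.802 FPKM (SD, n = 3 per group), 0.76 times the control level, and the log2 fold change was -0.38 ± 0.089 (SE, limma-trend adjusted p = 0.0259). The log2 fold change was -0.44 to -0.34 in the fits that each left out 1 sample. The call was lost without control replicate 3 (adjusted p = 0.0548) and without metformin replicates 1, 2 or 3 (adjusted p = 0.118, 0.0874 and 0.12).

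Notch1 (chromosome 2, 26457903 to 26516663, minus strand) was at 12.0, 11.1 and 16.8 FPKM in the controls and at 11.1, 11.0 and 10.4 FPKM with metformin. The metformin samples lay just below the lowest control, and the spread among the controls came from replicate 3. The log2 fold change was -0.25 (95% interval -0.61 to 0.11, adjusted p = 0.287 by limma-trend), and -0.08 without control replicate 3. The opposite-strand gene 0610009E02Rik shares 964 bases with Notch1 and had 10 to 33 reads per sample against 2892 to 4689 for Notch1.

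Notch4, a receptor best known from endothelial cells (chromosome 17, 34564268 to 34588503, plus strand), had 5, 4 and 18 reads in the controls and 19, 12 and 11 reads with metformin. These counts overlapped between the groups (mean 0.0571 ± 0.0492 and 0.0857 ± 0.0287 FPKM, SD, n = 3 per group, two-sided exact permutation p = 0.4). With 3 samples per group this test cannot go below 0.1.

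**Figure D1:**
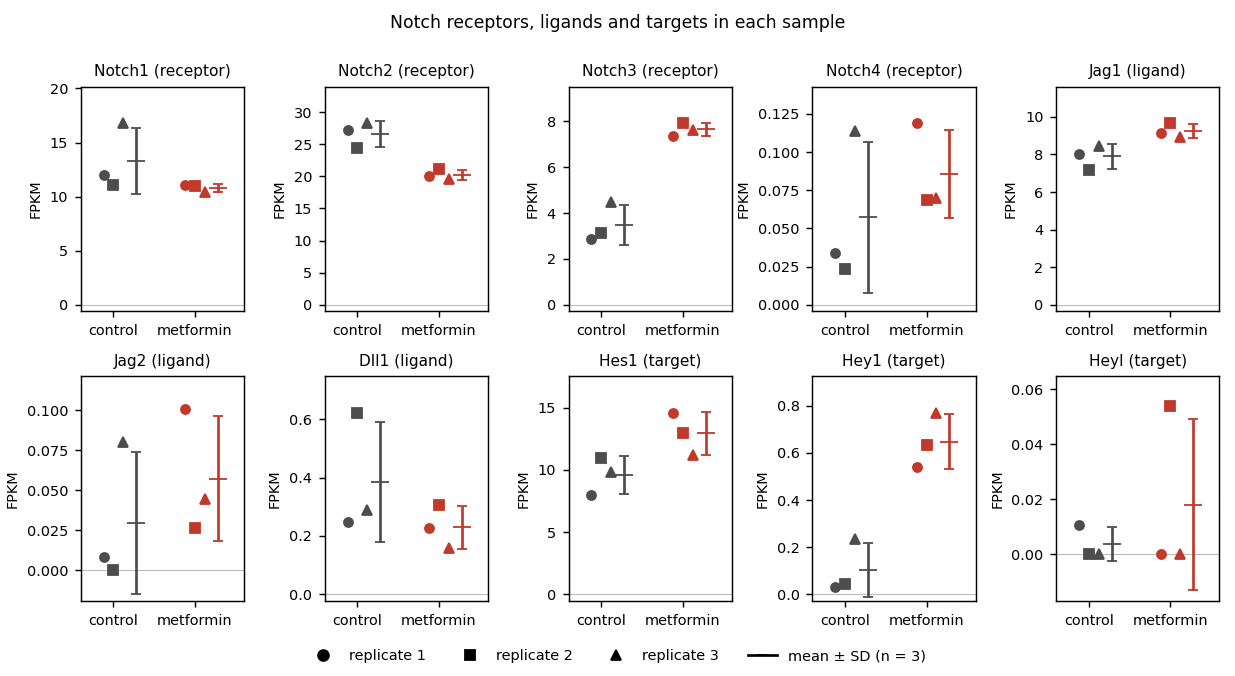
FPKM of each of the 10 genes in every sample (points, 1 marker shape per replicate) with mean ± SD (n = 3) for control and metformin, each panel on its own linear axis with 0 marked. Notch3 and Hey1 lie well above the controls in all 3 metformin samples, Notch2 lies below them, and control replicate 3 is the highest control for 7 of the 10 genes.

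The composition of the receptor RNA can be read from the share of each receptor in the summed FPKM of Notch1 to Notch4. Receptor protein was not measured in these data. Notch3 made up 6.79%, 8.06% and 8.98% of the sum in the controls and 19.1%, 19.7% and 20.3% with metformin. Notch2 made up 64.8%, 63.2% and 57.0% in the controls and 52.0%, 52.7% and 51.9% with metformin. Its share of the receptor RNA remained the largest in every sample. The share of Notch1 was 30.3 ± 3.03% in the controls and 27.9 ± 0.645% with metformin, and that of Notch4 was 0.124 ± 0.0917% and 0.221 ± 0.0751% (SD, n = 3 per group). The level of Notch2 was 9.53, 7.84 and 6.35 times that of Notch3 in the controls and 2.73, 2.67 and 2.56 times that of Notch3 with metformin. The sum itself was 42.2, 38.6 and 49.6 FPKM in the controls and 38.6, 40.2 and 37.7 FPKM with metformin, and these ranges overlapped. No test was run on the shares, which are built from the same values as the fold changes.

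**Figure D2:**
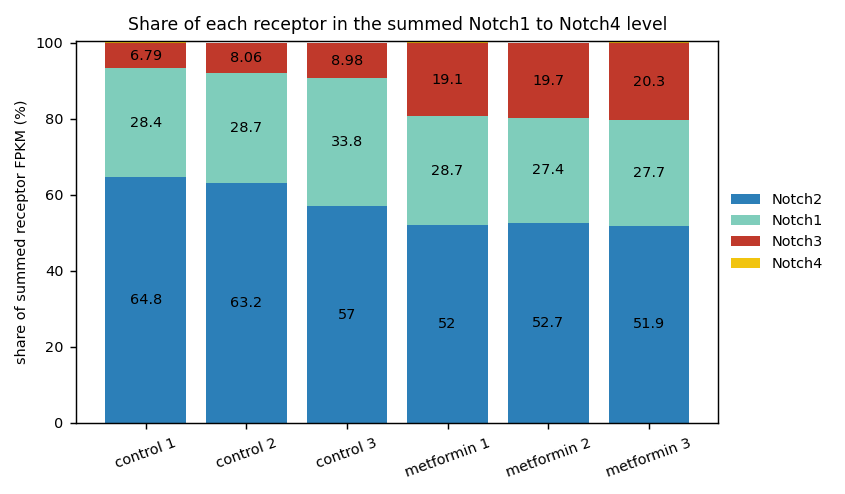
Share of each receptor (percent of the summed FPKM of Notch1 to Notch4, stacked bars from 0) in each of the 6 samples. The Notch3 segment is 6.79% to 8.98% in the controls and 19.1% to 20.3% with metformin, and the Notch4 segment is too thin to label.

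Among the ligands, Jag1 was the only one above the filter and none was called. Jag1, a membrane ligand that is the most studied Notch ligand in bone (chromosome 2, 137081456 to 137116644, minus strand), was at 8.05, 7.18 and 8.47 FPKM in the controls. With metformin it was at 9.16, 9.67 and 8.91 FPKM, above every control by a small margin. The log2 fold change was 0.21 (95% interval -0.0046 to 0.42, adjusted p = 0.147 by limma-trend), and the adjusted p-value was 0.069 to 0.39 over the alternatives.

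Dll1, a Delta-type ligand (chromosome 17, 15367354 to 15376872, minus strand), had 19, 55 and 24 reads in the controls and 19, 28 and 13 reads with metformin. The groups overlapped and control replicate 2 was the highest sample (mean 0.386 ± 0.205 and 0.23 ± 0.0732 FPKM, SD, n = 3 per group, two-sided exact permutation p = 0.3). Jag2, the other Jagged ligand (chromosome 12, 112907819 to 112929776, minus strand), had 1, 0 and 11 reads in the controls and 14, 4 and 6 reads with metformin. These counts also overlapped (exact permutation p = 0.5). This test cannot go below 0.1 with 3 samples per group, whatever the depth, so it does not decide whether Jag2 differed. Fitted with no filter on low values, Jag2 had a log2 fold change of 0.039 (adjusted p = 0.638 by limma-trend). By voom on the recovered reads of the same genes, a fit added after the data were seen, it was 1.8 (standard error 1.0, adjusted p = 0.314). Jag2 was not called in either fit.

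Of the target genes, Hes1 was well expressed and not called, Hey1 was low and higher in each metformin sample, and Heyl was nearly absent. Hes1 encodes a bHLH repressor that is a direct Notch target (chromosome 16, 30064384 to 30067796, plus strand). It was at 7.98, 11.0 and 9.87 FPKM in the controls and at 14.6, 13.0 and 11.2 FPKM with metformin. The groups did not overlap, but the lowest metformin sample was close to the highest control. The log2 fold change was 0.4 (95% interval 0.059 to 0.73, adjusted p = 0.0924 by limma-trend), and no alternative fit called it (adjusted p = 0.0698 to 0.282).

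Hey1 encodes a related repressor, also a direct Notch target (chromosome 3, 8663359 to 8667256, minus strand). It had 2, 3 and 15 reads in the controls and 35, 45 and 49 reads with metformin, which is 0.0335, 0.0438 and 0.234 against 0.54, 0.633 and 0.77 FPKM. Every metformin sample was above every control, and control replicate 3 held most of the control reads. The means were 0.104 ± 0.113 and 0.648 ± 0.116 FPKM (SD, n = 3 per group), a ratio of 6.25, and the two-sided exact permutation p was 0.1, the smallest this design allows. Without control replicate 3 the ratio was 16.7. Hey1 was under the filter because of its controls. With no filter on low values its log2 fold change on log2(FPKM + 1) was 0.58 (adjusted p = 0.0176 by limma-trend). That fit called 2 of the 10 genes higher, Notch3 and Hey1, and 1 lower, against 5.77% higher and 3.56% lower (9.34% in all) of 24801 genes. By voom on the recovered reads of the same genes, a fit chosen after the data were seen, it was 3.01 (standard error 0.59, adjusted p = 0.00682). The same 3 genes were called there, against 7.07% higher and 4.59% lower (11.7% in all) of the genes.

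Heyl, a further Hey gene (chromosome 4, 123233556 to 123249875, plus strand), had 1, 0 and 0 reads in the controls and 0, 6 and 0 reads with metformin. Its 6 reads were all in metformin replicate 2, and no fold is given.

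Ordered by mean FPKM, the controls ran from Notch2 (26.7) through Notch1 (13.3), Hes1 (9.62), Jag1 (7.9) and Notch3 (3.48) to Dll1 (0.386), Hey1 (0.104), Notch4 (0.0571), Jag2 (0.0294) and Heyl (0.00357). Hes1 and Jag1 overlapped in the controls, as did each neighbouring pair from Hey1 downward. With metformin the order was Notch2 (20.3), Hes1 (12.9), Notch1 (10.8), Jag1 (9.25), Notch3 (7.64), Hey1 (0.648), Dll1 (0.23), Notch4 (0.0857), Jag2 (0.0573) and Heyl (0.018). The first 7 of these did not overlap with their next neighbour, while Notch4, Jag2 and Heyl overlapped in turn. Hes1 thus stood above Notch1, and Hey1 above Dll1, with metformin only, a description for which no test was run. The gap between Hes1 and Notch1 was narrow in both groups. In the controls the highest Hes1 sample was at 11.0 FPKM and the lowest Notch1 sample at 11.1 FPKM. With metformin the lowest Hes1 sample was at 11.2 FPKM and the highest Notch1 sample at 11.1 FPKM.

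All 5 tested genes had metformin samples entirely above (3) or entirely below (2) the controls, against 23.6% and 20.5% of all tested genes, 44.1% in all. Control replicate 3 was the highest control for 30.4% of all tested genes. It was highest too for 7 of the 10 genes: Notch1 to Notch3 and Jag1, and the untested Notch4, Jag2 and Hey1. The deviation of control replicate 3 from the mean of the other controls had a Spearman rho of 0.635 with GC content across genes. The same measure was 0.411 for control replicate 2 and -0.668 for control replicate 1. Replicate 1 is part of the mean that replicates 2 and 3 were each set against. The GC content of the longest transcript was 48.8% to 61.9% over the 7 genes. Whether GC content had a part in these values was not tested gene by gene. With a correction for the GC trend of each library the log2 fold changes were 0.88 for Notch3, -0.42 for Notch2, -0.32 for Notch1, 0.35 for Hes1 and 0.14 for Jag1.

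**Figure D3:**
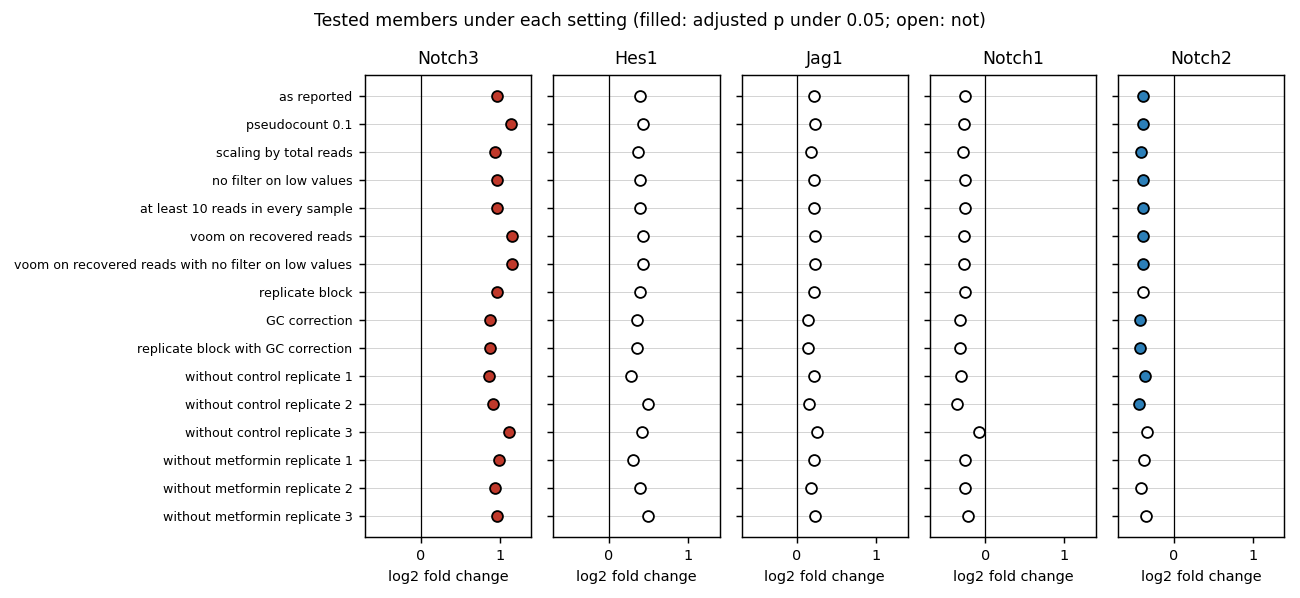
Log2 fold change (metformin minus control, linear axis) of the 5 tested genes under the reported fit and each of 15 alternatives, with points filled where the adjusted p-value was under 0.05. Notch3 is filled in every line, Notch2 is open in 4 of the 6 fits that left out a sample and with the replicate block, and Hes1, Jag1 and Notch1 are open in every line.

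The machinery around the receptors was examined in 53 further pathway genes, of which 42 were tested. Of these, 5 were called higher (Dlk2, Neurl1b, Pofut1, Lfng and Ncstn) and 4 lower (Psenen, Dtx4, Cir1 and Tle1), which is 21.4% of the tested genes of the list against 22.5% of all tested genes. The share is near that of the background. The groups within the list are small, and no test was run on their shares. The median log2 fold change of the list was 0.076.

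Genes that modify the receptor in the secretory pathway included 2 that rose. Lfng encodes lunatic fringe, which extends O-linked fucose on the receptor and changes its response to ligands (chromosome 5, 140607320 to 140615545). It was at 7.37, 11.1 and 10.8 FPKM in the controls and at 19.7, 20.3 and 20.9 FPKM with metformin, without overlap, and the log2 fold change was 1.0 ± 0.15 (SE, limma-trend adjusted p = 0.00486). Pofut1, the enzyme that adds that fucose (chromosome 2, 153241533 to 153270247), was at 5.5, 5.11 and 5.82 FPKM in the controls and at 8.28, 7.76 and 8.02 FPKM with metformin (log2 fold change 0.48, adjusted p = 0.00709). Of the other fringe genes, Rfng was not called (0.16, adjusted p = 0.274) and Mfng had 0 reads in every sample. Poglut1, which adds O-linked glucose, and Furin, which cuts the receptor precursor, had log2 fold changes of -0.16 each (adjusted p = 0.505 and 0.422).

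Of the genes that act on the ligand side, Neurl1b and Dlk2 rose. Neurl1b was 1 of 4 tested ligand ubiquitin ligases (25.0% called, against 22.5% of all tested genes). Dlk2 was the only noncanonical ligand tested. Neurl1b encodes a ubiquitin ligase of the Neuralized family that promotes uptake of ligands (chromosome 17, 26414829 to 26446349). It was at 0.709, 0.633 and 0.426 FPKM in the controls and at 2.51, 2.74 and 2.69 FPKM with metformin, 4.49 times the control mean. The log2 fold change on log2(FPKM + 1) was 1.2 ± 0.1 (SE, limma-trend adjusted p = 0.000465). The added 1 understates the change at such low levels, and with 0.1 added in its place the log2 fold change was 2.02. Dlk2, a noncanonical Delta-like protein (chromosome 17, 46297421 to 46303271), was at 4.2, 5.05 and 4.21 FPKM in the controls and at 8.75, 8.17 and 7.87 FPKM with metformin (log2 fold change 0.76, adjusted p = 0.00218). The ligand ubiquitin ligases Mib1 (-0.056, adjusted p = 0.783), Mib2 (-0.34, adjusted p = 0.263) and Neurl1a (0.02, adjusted p = 0.94) were not called. Dll3, Dll4, Dlk1 and Dner did not pass the filter, with at most 0.211 FPKM in any sample for both canonical ligands, and Dlk1 had 0 reads.

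Among the proteases that cut the receptor, 1 subunit of γ-secretase rose and 1 fell (33.3% of 6 tested, against 22.5% of all tested genes). Neither ADAM gene was called. Adam10, the sheddase of the first cut, was at 35.4, 26.1 and 22.2 FPKM in the controls and at 40.2, 40.8 and 39.9 FPKM with metformin, and was not called (log2 fold change 0.54, adjusted p = 0.0588 by limma-trend). It was called in 6 of the 15 alternatives, among them the fit without control replicate 1 (0.72, adjusted p = 0.000636), the highest control. Adam17 had a log2 fold change of 0.27 (adjusted p = 0.0969). Of 6 tested γ-secretase subunits, Ncstn (nicastrin) rose from 18.7 ± 1.77 to 25.6 ± 0.656 FPKM (SD, n = 3 per group, log2 fold change 0.44, adjusted p = 0.018). Psenen, the Pen-2 subunit, fell from 41.7 ± 8.34 to 26.9 ± 1.39 FPKM (SD, n = 3 per group, log2 fold change -0.6, adjusted p = 0.0325). The subunits Aph1a (0.3) and Aph1b (0.16) were not called, and Aph1c did not pass the filter.

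In the nucleus, Rbpj and its coactivators were not called in either direction. Rbpj, the DNA-binding factor, was at 8.9, 6.72 and 7.11 FPKM in the controls and at 8.76, 9.02 and 8.35 FPKM with metformin, with overlap (log2 fold change 0.19, 95% interval -0.08 to 0.45, adjusted p = 0.281 by limma-trend). The 7 genes of this group had log2 fold changes from -0.1 for Snw1 to 0.19 for Rbpj, with 0.013 for Maml1 and 0.17 for Kat2a, the best expressed of them. Of 10 corepressor genes, Cir1 and Tle1 fell. Cir1, which links Rbpj to histone deacetylases, was at 4.77, 3.91 and 4.49 FPKM in the controls and at 1.96, 2.03 and 2.55 FPKM with metformin (log2 fold change -0.76, adjusted p = 0.004), and Tle1, a Groucho family member that Hes proteins recruit, fell by 0.34 on the log2 scale (adjusted p = 0.0319). Tle5, listed under its older symbol Aes, and Ctbp1 were the best expressed corepressor genes and were not called (0.62 and 0.18, adjusted p = 0.245 and 0.187), and control replicate 1 was low for Tle5, at 40.6 FPKM against 102 FPKM in replicate 2 and a like level in replicate 3. Without that sample Tle5 was called, with a log2 fold change of 0.19 (adjusted p = 0.0333).

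Among the genes of receptor uptake and turnover, 1 of 7 tested was called (14.3%, against 22.5% of all tested genes). Dtx4, a Deltex ubiquitin ligase, was at 3.17, 4.27 and 4.63 FPKM in the controls and at 2.83, 2.46 and 2.16 FPKM with metformin (log2 fold change -0.52, adjusted p = 0.0389 by limma-trend). Dtx3, Itch, Numb, Numbl, Fbxw7 and Dtx2 were not called, with log2 fold changes from -0.38 for Dtx3 to 0.016 for Fbxw7, and Dtx1 did not pass the filter. The other target genes Hes5, Hes7, Hey2 and Nrarp also did not pass. Hes7 had 1, 31 and 19 reads in the controls and 14, 6 and 15 with metformin, Hes5 had 0 reads in the controls and 1, 3 and 1 with metformin, and Hey2 and Nrarp had 0 reads in every sample.

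The calls of Lfng, Neurl1b, Dlk2 and Cir1 held whichever sample was left out (6 fits). That of Pofut1 was lost without metformin replicate 1 (adjusted p = 0.0504), those of Ncstn and Psenen without control replicate 2 or any metformin replicate (adjusted p up to 0.0883 and 0.125), and those of Dtx4 and Tle1 in all but the fit without control replicate 1 (up to 0.141 and 0.134). With no filter on low values the calls of Psenen, Dtx4 and Tle1 were lost as well (adjusted p = 0.0693, 0.101 and 0.076 by limma-trend). Without control replicate 1 the list had 14 genes called higher and 10 lower, where 2974 and 2587 of all tested genes were called. Without metformin replicate 1 it had 3 and 1, where 926 and 486 of all tested genes were called. Without control replicate 2 or metformin replicates 2 or 3 the lower calls of the list were 1, and those over all tested genes 738, 505 and 526 in place of 1177. Without control replicate 3 they were 2 and 1046. The filter was applied anew in each of these fits, so the counts are not shares and were not compared with the background. Dlk2, Ncstn, Psenen, Cir1 and Tle1 overlap other genes, and Psenen and Cir1 also share near-identical transcript sequence with 2 and 4 other genes, so their reads could be split.

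**Figure D4:**
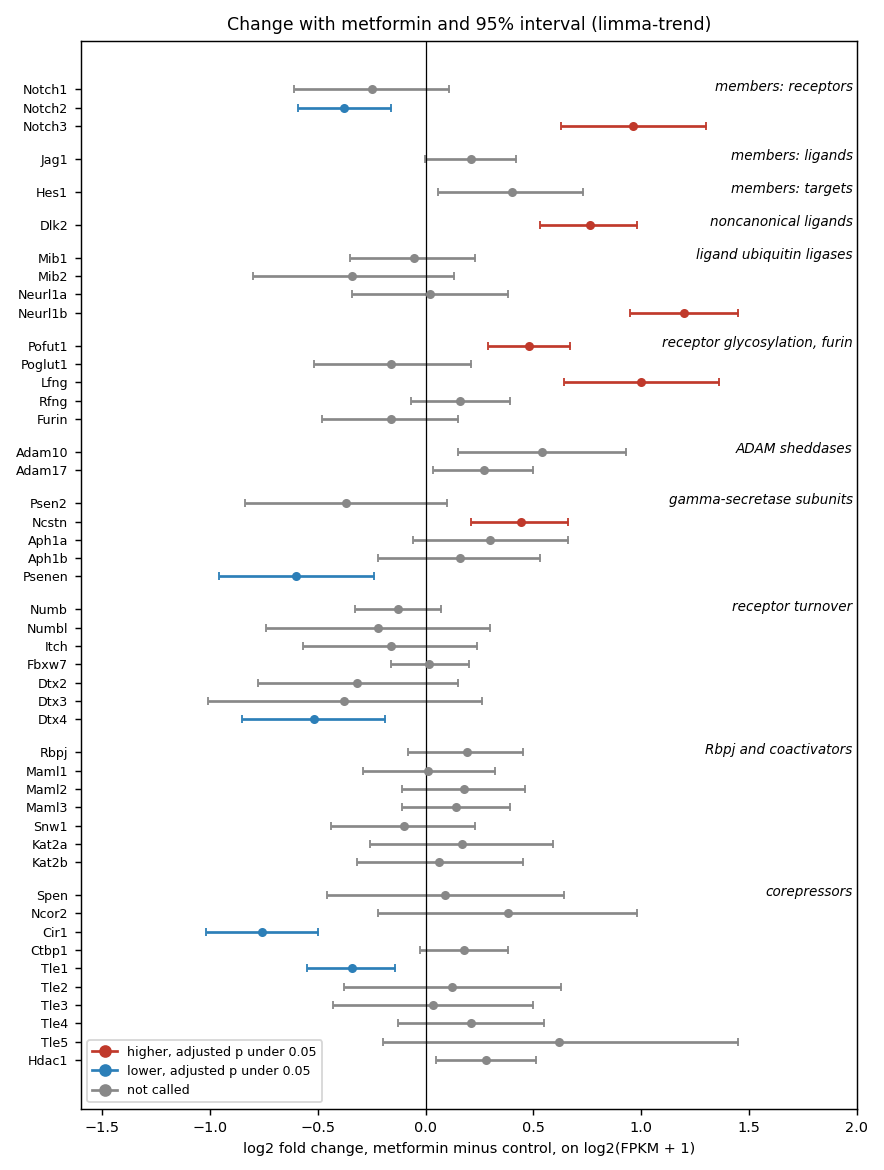
Log2 fold change (metformin minus control, on log2(FPKM + 1)) with its 95% interval for the 5 tested genes of the receptor, ligand and target set and the tested genes of the wider pathway that are reported here, grouped by role, with 3 samples per group. Intervals of called genes are coloured (Notch3, Dlk2, Neurl1b, Pofut1, Lfng and Ncstn higher, Notch2, Psenen, Dtx4, Cir1 and Tle1 lower), and those of the other genes are grey.

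The genes whose profile over the 6 samples was most like that of Notch3 were Celf5, Gm10156 and Hunk, by the root mean square difference of centred log2(FPKM + 1) values (0.0711, 0.084 and 0.0849). Celf5, which encodes an RNA-binding protein (chromosome 10, 81459227 to 81482709), was at 3.61, 4.33 and 5.71 FPKM in the controls and at 9.04, 9.02 and 10.2 FPKM with metformin. Hunk, which encodes a kinase (chromosome 16, 90386013 to 90499553), was at 0.567, 0.636 and 0.92 FPKM and at 2.06, 2.16 and 2.03 FPKM in the same order. As for Notch3, control replicate 3 was the highest control of each, a likeness that the choice by profile over these samples favours.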

How the data were processed

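RNA was sequenced from 6 samples of MC3T3-E1 cells, 3 per group, which the study calls biological replicates. Groups, replicate numbers and the 6 columns were matched by the sample labels, with 0 other columns of per-sample values. The table names no unit. The authors deposited FPKM, reads scaled by the listed gene length and an effective library size: in each sample, 1 step divided every value times length into whole reads (100% of values above 0, within 0.01 reads), so that reads could be computed. The gene length, in base pairs in the deposited table, equals the union of exons in GENCODE M21 (GRCm38) for 98.0% of matched genes. Coordinates are those of the table, and 9 of the 10 genes have the same coordinates in GENCODE M21. The submitters' processing notes name Bowtie 0.12.2 and the builds mm8 and mm9 with no role. The counting tool and its use of strand are not given in the sources used here. The authors tested with DESeq2. Here the FPKM were tested with limma 3.58.1 (R 4.3.3) with an intensity trend on log2(FPKM + 1), two-sided, which understates changes of low genes. Genes needed a mean of at least 0.5 FPKM, and p-values were adjusted over all tested genes. A count of 0 allows up to 3 reads, 1.36e-05% to 1.63e-05% of a sample, and this limit takes in counting error alone.

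The other settings were no filter, at least 10 reads in every sample, a pseudocount of 0.1, total reads as the scale, voom on the recovered reads, the replicate block, a correction for GC content (a spline with 5 degrees of freedom per library) without and with that block, and leaving out each sample. Voom with no filter was added after the data were seen. Named are the 10 genes, the called genes of the wider pathway list, the 2 best expressed of each subgroup and those under the filter, and the 3 genes most like the called receptor, ligand or target with the largest change. Of the pathway list, 1 gene that enters the counts is not reported here. Other pathway genes named to complete a subgroup were chosen after their values were seen. The genes and lists were chosen with earlier results of these data known. Shared transcript sequence means at least 95% identity over 200 bases (BLAST+ 2.17.0). The start windows are from RefSeq (GRCm38.p6). The fit was tested on simulated reads, which did not carry the GC trend of the libraries. Figures were drawn with matplotlib 3.10.9.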

Additional observations from a re-analysis of the deposited data

How the results depend on the processing

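The alternatives were run for 27 of the tested genes named, not for those named only to complete a subgroup. Of the 27, 10 kept their direction and their side of the threshold in all 15 alternatives, among them Notch1, Notch3, Jag1 and Hes1. Over all tested genes the higher calls were 1670, from 926 to 2974 over the fits that each left out a sample, and the lower calls 1177, from 486 to 2587 over those fits, 698 with the replicate block, 2433 with the GC correction and 1888 when both were used. The receptor, ligand and target genes called higher were 1, in each fit that left out a sample (1 to 1), and 2 when no filter was applied, also with voom (a fit added after the data were seen), where Hey1 was also tested. Those called lower were 1, from 0 to 1 over the fits that left out a sample, and 0 with the replicate block (Notch2, adjusted p = 0.101). The other pathway genes called higher were 5, from 3 to 14 over the fits that left out a sample. Those called lower were 4, from 1 to 10 over the same fits, with 1 with no filter, 1 with the replicate block and 7 with the GC correction. With no filter, 3.56% of 24801 genes were called lower. Signs that turned were all of genes not called: over the fits that left out a sample the log2 fold changes ran from -0.15 to 0.066 for Mib1, -0.28 to 0.011 for Poglut1, -0.27 to 0.034 for Itch, -0.04 to 0.3 for Kat2a and -0.09 to 0.1 for Maml1, each turning without control replicate 1, and Maml1 was also -0.067 without metformin replicate 2, -0.014 with scaling by total reads and -0.044 with the GC correction, also with the block. The cause was not tested. The replicate numbers marked no shared deviation (correlations across genes from -0.0549 to 0.000265, with 0 of 6 samples closest to their own number), and the replicate block took the call from 5 of the 27 genes and gave none, with adjusted p-values by limma-trend of 0.0715 for Ncstn, 0.07 for Psenen, 0.0963 for Dtx4 and 0.113 for Tle1 beside that of Notch2. Depth limits Notch4, Jag2, Dll1, Hey1 and Heyl, which had 0 to 55 reads per sample.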
